A study of Mus musculus with 48 samples.

Results

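The response of XYM mouse lungs to hyperoxia was measured at postnatal day 5 (P5) across all expressed genes. It was taken from 6 of the 48 animals sequenced, chosen by genotype, age and treatment. The exposed animals were 3 XYM mice that breathed 95% oxygen (animals 25, 26 and 27). The controls were 3 XYM mice kept in room air (animals 9, 10 and 11). The spread behind each p-value was estimated from the P5 animals of all genotypes together. All animals belong to the FCG model (core genotypes that separate gonads from sex chromosomes) on the C57BL/6J strain. In this model the testis-determining gene Sry is deleted from the Y chromosome and placed on an autosome, so that gonads and sex chromosomes are inherited apart. XYM mice carry 1 X and 1 Y chromosome with testes, XYF mice carry the same chromosomes with ovaries, and XXM and XXF mice carry 2 X chromosomes with testes or ovaries. Because the Sry transgene is present in both XYM groups, it is shared by the exposed and the control animals, and testes in XYM mice come from the transgene and not from the Y chromosome. According to the series description, newborn mice were exposed on days 1 to 5 and first collected on day 7, whereas the sample labels read postnatal day 5. The study's paper also places the early collection at P5, directly after the exposure ended. Values below are listed for animals 9, 10 and 11 in room air and then for animals 25, 26 and 27 in hyperoxia.

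Whole frozen lung was used, so the RNA of all lung cells was pooled in each library, and poly(A) RNA was read as stranded pairs. Total counts were 11401321 to 56798952 per room-air XYM library and 6287673 to 20820622 per exposed library, with the lowest in animal 27. At P5, Sry had 9 to 59 counts in the XYM libraries and 0 in every XYF and XXF library, and the Y-linked helicase Ddx3y had 369 to 2748 counts against 0 to 2 in XX libraries of this age. Xist, the RNA that coats an inactive X, had 9 to 55 counts in P5 XYM libraries against 7547 to 46694 in P5 XX libraries, so the sex chromosome genes followed the labels of the XYM libraries. The surfactant gene Sftpc, which defines alveolar type 2 cells, stood at 14965 to 17975 CPM (counts scaled to library size after TMM normalisation) in the 6 animals. The 14 skeletal and heart muscle genes summed to 151, 913 and 625 CPM in room air and 193, 141 and 136 CPM in hyperoxia. Room-air animals 10 and 11 thus stood apart. The 7 adipocyte genes summed to 1.03, 1.33 and 75.6 CPM in room air and 1.97, 1.3 and 2.07 CPM in hyperoxia, with animal 11 far above the others. Mitochondrially encoded transcripts took 1.46% to 1.73% of counts in room air and 2.06% to 2.22% in hyperoxia, and the other genotypes spanned 1.45% to 1.66% and 1.86% to 2.23%. The part of this share in the results was not tested. Outside XYM, the exposed XXM animals 22 and 23 held only 17764 and 15985 genes with a count, against 21775 to 28556 in the other P5 animals, and the library labelled room-air XXM animal 5 held 0 Sry counts, which allows up to 3 counts.

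Mice are born before their alveoli have formed, and in the first weeks of life new septa divide the air spaces under the lead of myofibroblasts that lay down elastin and respond to platelet-derived growth factor. Capillaries grow with the septa, and the epithelium divides and thins. High oxygen damages DNA and lipids in these cells, and exposed newborn mice are used as a model of bronchopulmonary dysplasia, the lung disease of very preterm infants. The p53 pathway, which halts the cell cycle, and the NRF2 pathway, which induces antioxidant enzymes, are well-known responses to such damage.

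In XYM lungs 1030 of 17677 tested genes (5.83%) were differentially expressed genes (DEGs), defined by an adjusted p under 0.05 in edgeR's quasi-likelihood test and a change of at least 1.5-fold. Of these, 372 (2.1% of tested genes) rose and 658 (3.72%) fell in hyperoxia, so that 63.9% of DEGs were lower. A change of at least 2-fold was found for 88 rising and 255 falling DEGs, and of at least 4-fold for 15 and 49. The median log2 fold change was 0.77 among rising and -0.89 among falling DEGs, while over all tested genes it was -0.00. The 3 exposed and the 3 room-air animals did not overlap for 1018 DEGs and overlapped for 12, against no overlap in 43.4% of all tested genes. With 3 animals in each group the smallest p of an exact permutation test is 0.1, so single genes were tested through the model. Every DEG kept its direction when any 1 XYM animal was left out. For the 1018 DEGs without overlap this could hardly be otherwise, so it is no test of their direction. The number of DEGs depended on which groups shared the fit, because the spread was pooled over all P5 groups. With the 6 XYM animals alone, 698 genes rose and 1151 fell. The number also depended on single animals. Without animal 25 there were 220 rising and 386 falling DEGs, and without animal 26 there were 285 and 396. In whole lung, fewer cells of a type and less RNA per cell cannot be told apart.

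**Figure D1:**
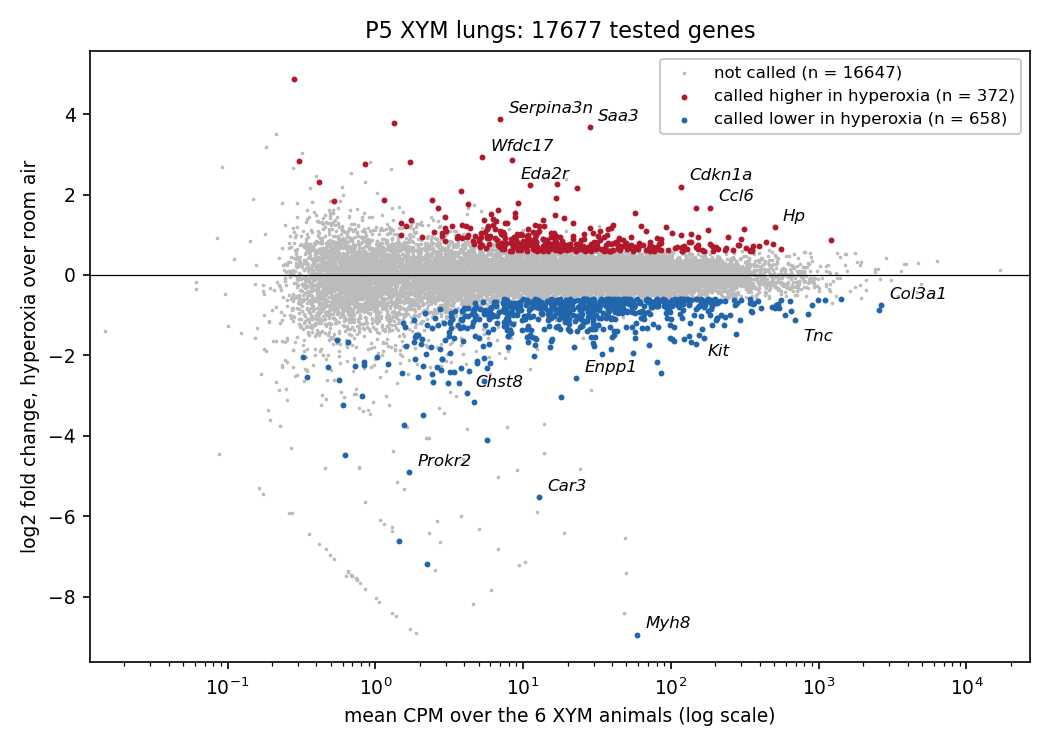
Mean CPM over the 6 animals (horizontal axis, log scale) against the log2 fold change of hyperoxia over room air (vertical axis) for the 17677 genes tested in P5 XYM lungs. Grey points are genes that were not called, coloured points are the 372 rising and 658 falling DEGs, and the labelled points name genes of the text; the falls reach further from 0 than the rises.

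Among the largest rises were genes of the p53 pathway. Cdkn1a (chr17:29090976-29100727, GRCm38), which encodes the cell cycle inhibitor p21, was at 41, 43.9 and 41.4 CPM in room air and 203, 229 and 143 CPM in hyperoxia. All exposed animals lay above all room-air animals, and the room-air values differed little from each other. The change was 4.59-fold (log2 fold change 2.20 ± 0.16 (SE), adjusted p = 1.51e-08), from 42.1 ± 1.59 to 192 ± 44.4 CPM (mean ± SD, n = 3). The X-linked gene Eda2r (chrX:97333840-97377216), a receptor for an ectodysplasin, was at 1.66, 2.13 and 2.47 CPM in room air and 16.7, 19.2 and 8.1 CPM in hyperoxia. The lowest exposed animal, 27, was still above the highest room-air animal, and the gene rose 7.2-fold (log2 fold change 2.85 ± 0.71 (SE), adjusted p = 0.00832). Ccng1 (cyclin G1) was at 52.7, 62.7 and 54.5 CPM in room air and 140.4, 151 and 92.3 CPM in hyperoxia (log2 fold change 1.19 ± 0.16 (SE), adjusted p = 3.87e-05). Zmat3, an RNA-binding p53 target, was at 24, 24 and 22.7 CPM in room air and 54.7, 60.9 and 39.2 CPM in hyperoxia (log2 fold change 1.14 ± 0.16 (SE), adjusted p = 5.68e-05). In each of these genes animal 27 had the lowest exposed value, and the groups did not overlap.

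The list of p53 targets held 22 tested genes, of which 6 rose, 1 fell and 15 were not called, with a median log2 fold change of 0.36, where 2.1% of all tested genes rose and 3.72% fell. The other rising members were the nuclease gene Aen (0.69, adjusted p = 0.00092) and the cell death effector Bax (0.60, adjusted p = 0.00185). Bax lay just above the 1.5-fold minimum and fell under it without animal 10 (0.58, adjusted p = 0.0101), without animal 11 (0.57, adjusted p = 0.0133), without animal 25 (0.57, adjusted p = 0.0154), without animal 26 (0.55, adjusted p = 0.0165). Mdm2, whose product degrades p53, did not reach the minimum (0.38, adjusted p = 0.00894), nor did Phlda3 (0.45, adjusted p = 0.00939). Gdf15 had a larger but more variable estimate (1.56, adjusted p = 0.0931). Plk2, a polo-like kinase, fell (-0.89, adjusted p = 0.0181), and this call was lost without animal 11 (-0.76, adjusted p = 0.0904), without animal 25 (-0.81, adjusted p = 0.0958), without animal 26 (-0.91, adjusted p = 0.0591). Thus the rising members included genes of cell cycle arrest, RNA control and cell death. Of the 15 members that were not called, 11 had a positive and 4 a negative estimate. The count of rising members was 5 to 7 with any 1 animal left out.

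Several antioxidant genes under NRF2 rose by smaller steps. Ephx1 (chr1:180976210-181020904), a microsomal epoxide hydrolase, was at 55.9, 49 and 52.4 CPM in room air and 94.1, 97.3 and 86.3 CPM in hyperoxia (log2 fold change 0.82 ± 0.10 (SE), adjusted p = 9.48e-06). The glutathione transferase gene Gsta3 was at 24.5, 20.0 and 23.6 CPM in room air and 39.6, 37.2 and 40.8 CPM in hyperoxia (log2 fold change 0.78 ± 0.14 (SE), adjusted p = 0.000793). For both genes the exposed animals were close to each other and clear of the room-air animals. Hmox1, which encodes heme oxygenase 1, was at 37.7, 37.4 and 39.2 CPM in room air and 149, 63.7 and 49.7 CPM in hyperoxia. Its exposed animals lay above the room-air animals, but animal 25 was far above the other two. The rise of Hmox1 (log2 fold change 1.22 ± 0.33 (SE), adjusted p = 0.015) was lost without animal 9 (1.21, adjusted p = 0.0544), without animal 25 (0.59, adjusted p = 0.293).

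Of 22 tested NRF2 targets 6 rose, 0 fell and 16 were not called, 13 of them with a positive estimate, and the list's median was 0.46, where 2.1% of all tested genes rose and 3.72% fell. The rising members also included Gclc (0.63, adjusted p = 0.000704), the catalytic subunit of the enzyme that begins glutathione synthesis, the sulfiredoxin gene Srxn1 (0.70, adjusted p = 0.00374) and the quinone reductase gene Nqo1 (0.75, adjusted p = 0.0105). These calls were lost for Gclc without animal 25 (0.57, adjusted p = 0.00874), for Srxn1 without animal 25 (0.53, adjusted p = 0.0585), and for Nqo1 without animal 25 (0.68, adjusted p = 0.067), without animal 26 (0.68, adjusted p = 0.0623). Without animal 25 only Ephx1 and Gsta3 stayed among the DEGs of this list. Several other members had a small adjusted p but changed by less than 1.5-fold, among them Gstm1 (0.38, adjusted p = 0.000939), Me1 (0.47, adjusted p = 0.00175) and Prdx1 (0.29, adjusted p = 0.0238). Reads of the near-identical glutathione transferase copies may have been split in counting, so the values of Gsta3 are uncertain in this respect.

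The window before the Gsta3 start is shown because it holds the letters of the antioxidant response element, the sequence to which NRF2 binds. It is given 5′ to 3′ for the 250 bases before the RefSeq start (chr1:21240335-21240584, plus strand, GRCm38.p6), with the element core TGACNNNGC in capitals, 121 bases before the start.
Gsta3: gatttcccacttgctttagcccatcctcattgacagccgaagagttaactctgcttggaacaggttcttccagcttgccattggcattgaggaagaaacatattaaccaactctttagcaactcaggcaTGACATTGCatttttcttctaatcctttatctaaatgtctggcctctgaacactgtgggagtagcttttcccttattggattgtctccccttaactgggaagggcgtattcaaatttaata
The core, read on either strand (GCNNNGTCA on the other), was found in 9 of 20 NRF2 targets with a 300-base window around the start (45.0%), in 14% of all 27025 genes with such a window and in 16.6% of the tested genes. Among the rising members with a window it was present for Srxn1 and Gsta3 and was not in the windows of Ephx1 and Nqo1. Over all rising DEGs the share was 17.9% and over all falling DEGs 16.1%. These are matches of letters and not sites of binding.

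**Figure D2:**
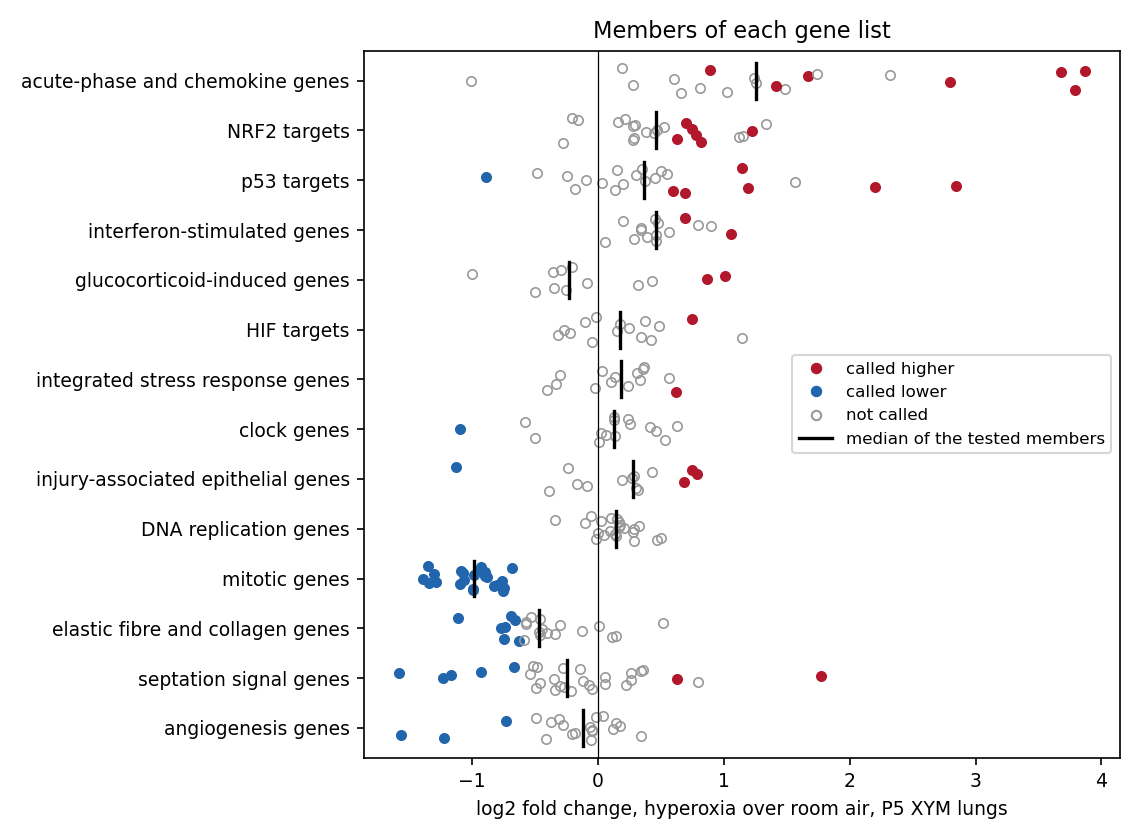
Log2 fold change of hyperoxia over room air in P5 XYM lungs (horizontal axis) for each tested member of 14 gene lists (rows). Each point is 1 gene, filled red or blue where it is a rising or falling DEG, and the upright bars are list medians; all 23 mitotic genes lie left of 0 as DEGs, while the 22 DNA replication genes straddle 0.

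The largest rises among the named genes were acute-phase proteins and chemokines. Serpina3n (chr12:104406729-104414329), a secreted protease inhibitor, was at 1.03, 0.974 and 0.721 CPM in room air and 23.2, 13.5 and 2.54 CPM in hyperoxia. The exposed animals differed from each other, with animal 27 lowest, yet all lay above room air. Serpina3n rose 14.7-fold (log2 fold change 3.87 ± 0.65 (SE), adjusted p = 0.000327), with a log2 fold change of 3.19 without animal 25. Saa3, a serum amyloid A protein made in inflamed tissue, was at 2.61, 6.02 and 4.59 CPM in room air and 100.4, 33 and 23.2 CPM in hyperoxia (log2 fold change 3.68 ± 0.65 (SE), adjusted p = 0.000528). Animal 25 was far above the others, and without it the log2 fold change of Saa3 was 2.76. Lcn2, the iron-withholding protein lipocalin 2, was at 70.5, 74.8 and 67.6 CPM in room air and 361, 189 and 122 CPM in hyperoxia (log2 fold change 1.67 ± 0.35 (SE), adjusted p = 0.00198), again with animal 25 highest. Haptoglobin (Hp), a hemoglobin scavenger and acute-phase protein, was at 348, 277 and 296 CPM in room air and 706, 681 and 712 CPM in hyperoxia with nearly equal exposed animals (log2 fold change 1.19 ± 0.15 (SE), adjusted p = 2.4e-05).

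Chemokines of the list rose as well. Ccl9, a chemoattractant for myeloid cells, was at 9.4, 10.5 and 11.3 CPM in room air and 32.4, 24.9 and 25.1 CPM in hyperoxia (log2 fold change 1.41 ± 0.21 (SE), adjusted p = 8.5e-05). Its neighbour Ccl6, named after its values were seen, had the smallest p of all tested genes and was at 87.7, 90.7 and 85.4 CPM in room air and 263, 285 and 294 CPM in hyperoxia (log2 fold change 1.67 ± 0.11 (SE), adjusted p = 9.19e-09). The neutrophil chemoattractant Cxcl5 was at 0.198, 0.531 and 0.607 CPM in room air and 0.962, 4.5 and 3.5 CPM in hyperoxia, and animal 25 was close to room air. Its call (2.80, adjusted p = 0.00529) was lost without animal 26 (2.30, adjusted p = 0.0535). Ccl20, which attracts lymphocytes and dendritic cells, was at 0.126, 0.266 and 0.19 CPM in room air and 0.481, 5.68 and 1.27 CPM in hyperoxia, so that animal 26 was far above the others. The call of Ccl20 (3.79, adjusted p = 0.0169) was lost without animal 9 (3.48, adjusted p = 0.0959), without animal 11 (3.83, adjusted p = 0.0757), without animal 26 (2.14, adjusted p = 0.304). Timp1, the X-linked inhibitor of metalloproteinases, rose (0.89, adjusted p = 0.00322). Of 19 tested genes of the list 7 rose, 0 fell and 12 were not called, with a median of 1.26, beside 2.1% of all tested genes rising and 3.72% falling. Counts of rising members were 5 to 7 with any 1 animal left out. Summed over the list, the level was 115, 128 and 123 CPM in room air and 577, 317 and 228 CPM in hyperoxia.

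Other rising genes came from the sets with the largest changes and the highest levels. Wfdc17, a small inhibitor of inflammatory signalling in macrophages, was at 1.04, 1.33 and 1.37 CPM in room air and 11.1, 10.2 and 6.51 CPM in hyperoxia (log2 fold change 2.93 ± 0.44 (SE), adjusted p = 0.000111). Cxcl17, a mucosal chemokine, was at 5.33, 6.55 and 5.81 CPM in room air and 27.5, 24.3 and 32.9 CPM in hyperoxia (log2 fold change 2.27 ± 0.27 (SE), adjusted p = 9.65e-06). Chodl, which encodes the membrane lectin chondrolectin, was at 3.42, 5.4 and 3.23 CPM in room air and 23.7, 17.2 and 13.3 CPM in hyperoxia (log2 fold change 2.24 ± 0.44 (SE), adjusted p = 0.0014). For all 3 genes every exposed animal was above every room-air animal, which was a condition for naming them. Among the most abundant rising genes, the protease Ctsh (cathepsin H) was at 355, 380 and 354 CPM in room air and 717, 648 and 488 CPM in hyperoxia (log2 fold change 0.77 ± 0.13 (SE), adjusted p = 0.000313). Sec14l3, a lipid-binding protein of airway epithelium, was at 439, 417 and 438 CPM in room air and 737, 664 and 638 CPM in hyperoxia (log2 fold change 0.66 ± 0.10 (SE), adjusted p = 8.34e-05). Further genes with small p-values were named after their values were seen, the serine protease inhibitor Spink5 (1.53, adjusted p = 1.33e-06) and the mitochondrial creatine kinase Ckmt1 (1.49, adjusted p = 0.00051).

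Macrophage markers changed in both directions. Marco, a scavenger receptor of alveolar macrophages, was at 7.35, 6.29 and 7.36 CPM in room air and 38.6, 21.9 and 18.6 CPM in hyperoxia (log2 fold change 1.92 ± 0.29 (SE), adjusted p = 0.000101). Spp1 (osteopontin), a matrix protein of activated macrophages, was at 8.5, 9.83 and 7.82 CPM in room air and 65.4, 29.5 and 17.6 CPM in hyperoxia (log2 fold change 2.15 ± 0.44 (SE), adjusted p = 0.00168). Animal 25 was highest for both genes, all exposed animals were above room air, and the log2 fold change of Spp1 without animal 25 was 1.47. Gpnmb, a glycoprotein of lipid-laden macrophages, was at 7.96, 7.71 and 7.02 CPM in room air and 18.2, 18.2 and 23.2 CPM in hyperoxia (log2 fold change 1.38 ± 0.22 (SE), adjusted p = 0.000223). The lysosomal marker Cd68 was at 21.3, 21.7 and 22.9 CPM in room air and 40.3, 38.6 and 36.9 CPM in hyperoxia (log2 fold change 0.82 ± 0.11 (SE), adjusted p = 3.15e-05). Siglecf, a lectin of alveolar macrophages and eosinophils, fell from 4.52, 5.14 and 3.72 to 1.97, 2.19 and 1.59 CPM (log2 fold change -1.18 ± 0.26 (SE), adjusted p = 0.0034). Of 16 markers 5 rose, 1 fell and 10 were not called (median 0.33), beside 2.1% of all tested genes rising and 3.72% falling. The fifth rising marker, the integrin Itgax (0.64, adjusted p = 0.000528), fell under the fold minimum without animal 11 (0.58, adjusted p = 0.00616). The summed level of the list was 433, 414 and 419.7 CPM in room air and 542, 486 and 512 CPM in hyperoxia, so that every exposed animal was above every room-air animal.

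Markers of other blood cells and of neighbouring tissues gave few calls, beside 2.1% of all tested genes rising and 3.72% falling. Of 11 tested neutrophil markers 0 rose and 1 fell (median 0.49). The falling marker was lactoferrin (Ltf), at 16.6, 89.2 and 55.6 CPM in room air and 8.61, 8.93 and 26.7 CPM in hyperoxia, where the groups overlapped. Its call (-1.97, adjusted p = 0.0334) was lost without animal 10 (-1.40, adjusted p = 0.19), without animal 11 (-1.93, adjusted p = 0.0852), without animal 25 (-1.67, adjusted p = 0.185), without animal 26 (-1.70, adjusted p = 0.165), and without animals 10 and 11 together its log2 fold change was -0.28. Without animal 27, 3 neutrophil markers fell and 1, the chemokine receptor Cxcr2, rose (1.09, adjusted p = 0.0155), and the log2 fold change of Ltf was -2.58. The 12 lymphocyte markers had 0 calls by edgeR, 1 by DESeq2 and 3 with an unadjusted p under 0.05, with a median of -0.66. Their sum was 82.4, 85.5 and 81.5 CPM in room air and 39.2, 47.3 and 79.3 CPM in hyperoxia, so animal 27 was at the room-air level and animals 25 and 26 were lower. Without animal 27, 3 lymphocyte markers fell, among them the B cell receptor chain Cd79b (-0.94, adjusted p = 0.0174). Mast cell markers had 1 call among 6 (median 0.18), and this was Kit, which lung capillary endothelium also expresses. Thymocyte markers (4 tested, median -0.93) had 0 calls by edgeR or DESeq2 and 1 with an unadjusted p under 0.05. Over all 6 listed thymocyte genes the sums were 6.08, 4.34 and 2.58 CPM in room air and 0.962, 4.14 and 1.27 CPM in hyperoxia. Hepatocyte markers (3 tested, median 1.52) had 0 calls by edgeR or DESeq2 and 0 with an unadjusted p under 0.05. Over all 6 listed hepatocyte genes the sums were 2.66, 1.77 and 3.95 CPM in room air and 7.02, 14.5 and 2.38 CPM in hyperoxia. Albumin (Alb) was highest in animal 26.

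**Figure D3:**
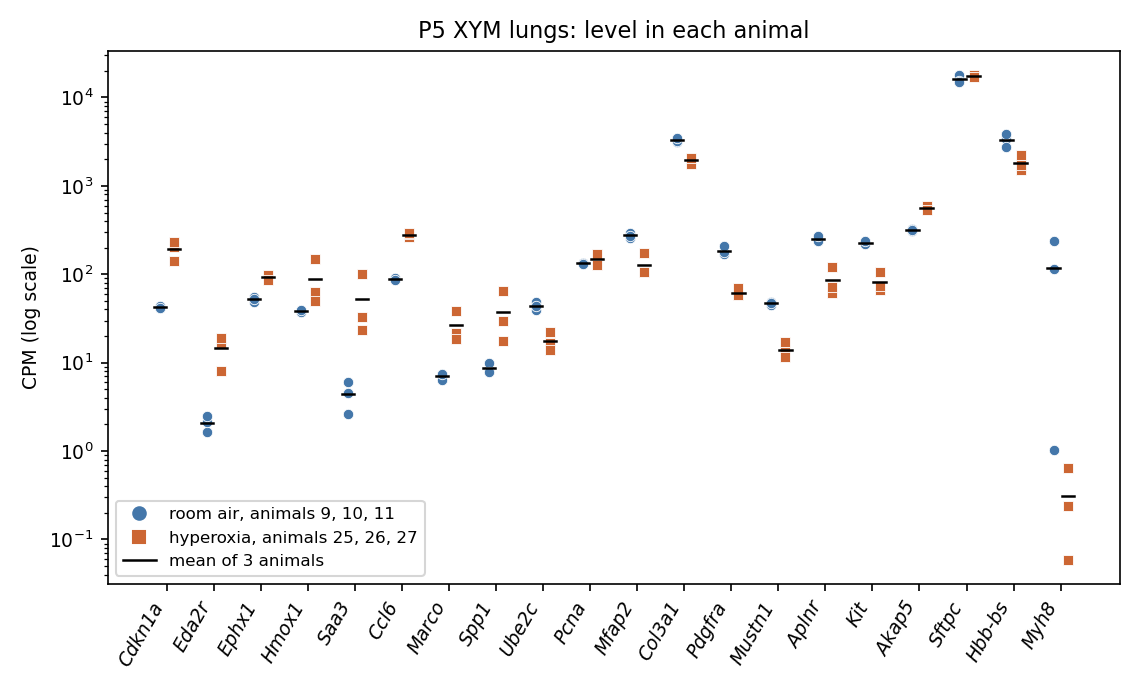
CPM (vertical axis, log scale) of 20 genes (horizontal axis) in each of the 6 P5 XYM animals, to be compared within a gene. Blue points are room-air animals, orange squares exposed animals and bars the means of 3; Cdkn1a, Ccl6, Pdgfra and Kit separate the groups clearly, Sftpc and Pcna overlap, and Myh8 has 1 room-air animal, 9, close to the exposed animals.

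All 23 tested mitotic genes fell, against 3.72% of all tested genes, and in none did the groups overlap. Their median log2 fold change was -0.98, with a range of -1.39 to -0.69. Ube2c (chr2:164769898-164778822), the ubiquitin enzyme of the anaphase-promoting complex, was at 39.2, 48.9 and 44.1 CPM in room air and 16.7, 13.8 and 22.4 CPM in hyperoxia (log2 fold change -1.35 ± 0.15 (SE), adjusted p = 6.58e-06). The centromere protein Cenpf was at 55.8, 69.3 and 60.2 CPM in room air and 21, 19.3 and 31.9 CPM in hyperoxia (log2 fold change -1.39 ± 0.18 (SE), adjusted p = 2.07e-05). Ccnb2, a mitotic cyclin, was at 44.9, 52.8 and 50.1 CPM in room air and 16.5, 14.1 and 30.2 CPM in hyperoxia (log2 fold change -1.34 ± 0.20 (SE), adjusted p = 0.000124). In these genes animal 27 was the highest of the exposed animals but stayed under room air. The proliferation marker Mki67 was at 251, 306 and 277 CPM in room air and 124, 97.8 and 178 CPM in hyperoxia (log2 fold change -1.07 ± 0.20 (SE), adjusted p = 0.000884).

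Genes for many stages of mitosis were among them. The anaphase activator Cdc20 (-1.29, adjusted p = 0.000235), cyclin B1 (Ccnb1, -1.09, adjusted p = 0.000201), the polo-like kinase Plk1 (-1.09, adjusted p = 0.0023), the microtubule depolymerase Kif2c (-1.31, adjusted p = 6.98e-05), the kinetochore motor Cenpe (-1.07, adjusted p = 9.2e-05), the spindle factor Tpx2 (-0.93, adjusted p = 0.00174) and survivin (Birc5, -0.99, adjusted p = 0.00284) stayed among the DEGs with any 1 animal left out. Summed over the list, the level was 1309.9, 1581 and 1424 CPM in room air and 679, 558 and 1023 CPM in hyperoxia. The number of falling members was 16 without animal 25, 15 without animal 26, 20 without animal 10 and 21 without animal 11, and it stayed at 23 without animal 9 or 27.

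Genes of DNA replication did not follow. None of 22 tested members was called by edgeR or DESeq2, 1 had an unadjusted p under 0.05, and the median was 0.15. Pcna, the sliding clamp of DNA polymerase, was at 135, 133 and 130.1 CPM in room air and 152, 129 and 168 CPM in hyperoxia (log2 fold change 0.17 ± 0.10 (SE), adjusted p = 0.332). Mcm6, a subunit of the replicative helicase, was at 118, 116 and 106 CPM in room air and 127, 104 and 156 CPM in hyperoxia (log2 fold change 0.18 ± 0.13 (SE), adjusted p = 0.448). For both genes the exposed animal 26 was within or below the room-air range while animals 25 and 27 were above it. The sum of the list was 1127, 1134 and 1064 CPM in room air and 1208, 998 and 1435 CPM in hyperoxia, so that the groups overlapped. Estimates ran from -0.34 to 0.50, the former for Rrm2, the small subunit of ribonucleotide reductase (-0.34, adjusted p = 0.347).

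**Figure D4:**
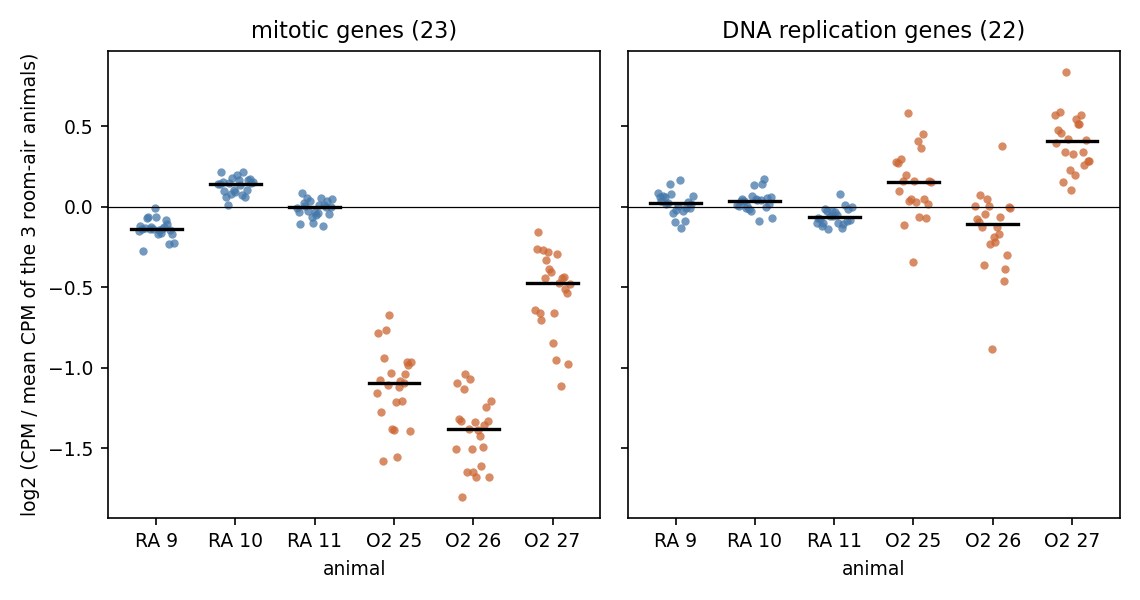
Level of each mitotic gene (23) and each DNA replication gene (22) in the 6 P5 XYM animals, as log2 of CPM over the mean of the room-air animals (vertical axis), by animal (horizontal axis). Each point is 1 gene and the bars are medians; the mitotic genes lie below 0 in animals 25, 26 and 27, least so in 27, while most replication genes lie above 0 in animal 27 and below it in animal 26.

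Promoters of 3 mitotic genes and of Pcna are shown because the mitotic genes moved together and the replication genes did not. The 3 mitotic genes were those with the smallest p whose window held both kinds of match described here. Pcna was the most abundant replication gene with a CCAAT box in its window. The matches in the windows shown were thus a condition of choice and do not describe the lists. Each is the 250 bases before the RefSeq start (GRCm38.p6), 5′ to 3′ on the strand of the gene, with 2 kinds of match in capitals. The first is the cell cycle gene homology region, searched as TTTGAA, or TTCAAA on the other strand. The other is the CCAAT box, searched as these letters, or as ATTGG on the other strand. Ube2c (chr2:164769679-164769928, plus strand) held the homology region letters 29 bases before the start, Ccnb2 (chr9:70421555-70421804, minus strand) 167 bases before and Cdc20 (chr4:118437344-118437593, minus strand) 18 bases before. In the Pcna window (chr2:132253181-132253430, minus strand) the letters of the homology region are not present, and a CCAAT box begins 87 bases before the start.
Ube2c: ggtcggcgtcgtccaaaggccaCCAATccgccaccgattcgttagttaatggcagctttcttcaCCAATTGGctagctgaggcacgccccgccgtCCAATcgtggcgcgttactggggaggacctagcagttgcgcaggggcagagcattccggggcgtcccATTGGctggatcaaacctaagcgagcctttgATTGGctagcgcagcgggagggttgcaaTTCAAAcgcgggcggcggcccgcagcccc
Ccnb2: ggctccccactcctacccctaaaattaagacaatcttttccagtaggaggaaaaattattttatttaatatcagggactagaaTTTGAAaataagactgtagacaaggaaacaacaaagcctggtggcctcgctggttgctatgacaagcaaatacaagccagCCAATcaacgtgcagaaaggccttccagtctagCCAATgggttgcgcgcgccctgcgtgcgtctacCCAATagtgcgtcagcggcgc
Cdc20: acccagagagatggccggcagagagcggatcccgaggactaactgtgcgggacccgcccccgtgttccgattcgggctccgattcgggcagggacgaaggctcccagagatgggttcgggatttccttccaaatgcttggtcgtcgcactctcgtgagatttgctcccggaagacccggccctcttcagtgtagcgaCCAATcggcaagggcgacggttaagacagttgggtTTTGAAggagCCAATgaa
Pcna: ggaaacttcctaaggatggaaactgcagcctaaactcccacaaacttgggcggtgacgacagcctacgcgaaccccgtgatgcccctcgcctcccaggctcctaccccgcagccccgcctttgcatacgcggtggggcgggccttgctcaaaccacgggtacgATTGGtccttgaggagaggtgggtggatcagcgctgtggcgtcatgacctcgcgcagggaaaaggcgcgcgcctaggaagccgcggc
In Ube2c a pair of CCAAT matches, 186 and 183 bases before the start, overlap on opposite strands. In Ccnb2 the 3 matches stand 87, 54 and 21 bases before the start. Counted in 300-base windows on both strands, the homology region letters were found in 14 of 19 mitotic genes with a window (73.7%), in 2 of 17 replication genes (11.8%), in 14.9% of tested genes and in 20.2% of all 27025 genes with a window. The CCAAT letters were found in 16 of 19 mitotic genes (84.2%), in 11 of 17 replication genes (64.7%) and in 41.8% of tested genes. Over all DEGs the homology region share was 20.0% for falling and 16.1% for rising genes. A match describes the letters alone.

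Some genes of the matrix fell. Col3a1 (chr1:45311538-45349706), the chain of type III collagen, was at 3175, 3228 and 3504 CPM in room air and 2029, 1786 and 2075 CPM in hyperoxia. The groups were far apart relative to their spread, and the gene fell 1.68-fold (log2 fold change -0.75 ± 0.08 (SE), adjusted p = 3.66e-06). Mfap2, a microfibril protein of elastic fibres, was at 293, 259 and 273 CPM in room air and 106, 107 and 174 CPM in hyperoxia (log2 fold change -1.11 ± 0.14 (SE), adjusted p = 1.28e-05). Fibulin 1 (Fbln1) was at 129, 123 and 134 CPM in room air and 75.2, 65.7 and 86.4 CPM in hyperoxia (log2 fold change -0.77 ± 0.12 (SE), adjusted p = 0.000189). Of 23 tested genes for elastic fibres and collagens 0 rose, 7 fell and 16 were not called, with a median of -0.47, beside 2.1% and 3.72% of all tested genes. The other falling members were Mfap5 (-0.69, adjusted p = 0.00258), the lysyl oxidase relative Loxl2 (-0.66, adjusted p = 0.000367), Fbln2 (-0.74, adjusted p = 0.00841) and Col1a1 (-0.63, adjusted p = 0.000246). The call of Fbln2 was lost without animal 25 (-0.72, adjusted p = 0.0508), without animal 26 (-0.61, adjusted p = 0.0775), and that of Col1a1 without animal 26 (-0.55, adjusted p = 0.00409). Elastin (Eln) was not called (-0.12, adjusted p = 0.674), nor was fibulin 5 (Fbln5, 0.01, adjusted p = 0.975), which guides elastic fibre assembly. Col1a2 (-0.58, adjusted p = 2.99e-05) and Emilin1 (-0.45, adjusted p = 4.76e-05) had small adjusted p-values under the 1.5-fold minimum. The count of falling members was 5 without animal 26 and 10 without animal 27.

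Contractile genes fell next to the matrix genes. Mustn1, a small protein of contractile and skeletal cells, was at 44.6, 48.3 and 47.6 CPM in room air and 13.3, 11.5 and 17.2 CPM in hyperoxia (log2 fold change -1.77 ± 0.26 (SE), adjusted p = 7.41e-05). Pdlim3, an actinin-associated protein, was at 147, 152 and 150.2 CPM in room air and 54.3, 58.8 and 72.8 CPM in hyperoxia (log2 fold change -1.29 ± 0.16 (SE), adjusted p = 1.94e-05). For both genes the exposed animals lay far below room air. Synpo2, an actin-binding protein of smooth muscle, was at 37.9, 44.2 and 39.8 CPM in room air and 16.6, 15.7 and 24.2 CPM in hyperoxia (log2 fold change -1.14 ± 0.13 (SE), adjusted p = 9.65e-06). Desmin (Des) was at 154, 164 and 149 CPM in room air and 88.3, 85 and 79.9 CPM in hyperoxia (log2 fold change -0.88 ± 0.15 (SE), adjusted p = 0.0005). In these 4 genes the room-air animal 9, which was low in the skeletal muscle list, was as high as or close to animals 10 and 11. Smooth muscle myosin (Myh11, -0.74, adjusted p = 0.000537) and Lmod1 (-0.79, adjusted p = 0.00676) fell as well, the latter not without animal 26 (-0.72, adjusted p = 0.0508). Over all tested genes 2.1% rose and 3.72% fell. Of 12 tested markers of myofibroblasts and smooth muscle 0 rose, 6 fell and 6 were not called (median -0.63). Their sum was 1963, 2017 and 1965 CPM in room air and 1363, 1352 and 1450 CPM in hyperoxia. Smooth muscle actin (Acta2) was not called (-0.52, adjusted p = 0.00154).

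Both receptors of platelet-derived growth factor fell. Pdgfra (chr5:75152292-75198215), the receptor that marks myofibroblast precursors and lipofibroblasts, was at 169, 177 and 206 CPM in room air and 57.9, 58.2 and 70.1 CPM in hyperoxia. Every exposed animal was below every room-air animal, and Pdgfra fell 3.0-fold (log2 fold change -1.58 ± 0.16 (SE), adjusted p = 2.83e-06). Pdgfrb, the receptor of pericytes and fibroblasts, was at 456, 437 and 492 CPM in room air and 212, 249.7 and 268 CPM in hyperoxia (log2 fold change -0.93 ± 0.13 (SE), adjusted p = 4.89e-05). Their ligand Pdgfa was not called (0.26, adjusted p = 0.0599). Lef1, a transcription factor of the Wnt pathway, was at 10.3, 9.74 and 10.7 CPM in room air and 3.8, 5.03 and 4.93 CPM in hyperoxia (log2 fold change -1.17 ± 0.24 (SE), adjusted p = 0.00215). Wnt2, a mesenchymal ligand, fell as well (-0.67, adjusted p = 0.000248), though not without animal 26 (-0.58, adjusted p = 0.00428).

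Of 30 tested septation genes 2 rose, 5 fell and 23 were not called (median -0.24), beside 2.1% and 3.72% of all tested genes. The largest rise was Inhba, the subunit of activin A, at 1.49, 1.95 and 2.28 CPM in room air and 6.83, 4.91 and 7.79 CPM in hyperoxia (log2 fold change 1.77 ± 0.33 (SE), adjusted p = 0.000814), and its antagonist follistatin (Fst) was not called (0.79, adjusted p = 0.551). Igf1, a growth factor of fibroblasts and macrophages, was at 79, 109 and 96.5 CPM in room air and 155, 142 and 140 CPM in hyperoxia. Its rise (0.63, adjusted p = 0.00224) was lost without animal 9 (0.51, adjusted p = 0.0233), without animal 25 (0.58, adjusted p = 0.0178). The binding protein Igfbp2 was at 115, 151 and 152 CPM in room air and 68.1, 50.2 and 59 CPM in hyperoxia (log2 fold change -1.23 ± 0.23 (SE), adjusted p = 0.000851). Sonic hedgehog (Shh, 0.36, adjusted p = 0.019) and its receptor Ptch1 (0.34, adjusted p = 0.0381) stayed under the 1.5-fold minimum, as did Wnt5a (-0.52, adjusted p = 0.0024), Fgfr4 (-0.46, adjusted p = 0.00382) and Tgfb3 (-0.48, adjusted p = 0.00749). Fgf10, which supports lipofibroblasts, was not called (-0.49, adjusted p = 0.0594). Of 12 markers of lipofibroblasts and matrix fibroblasts 1 rose and 1 fell (median -0.33). The rising marker was lipoprotein lipase (Lpl, 0.71, adjusted p = 0.00104), lost without animal 25 (0.51, adjusted p = 0.0178), and the falling one the collagen Col14a1 (-0.78, adjusted p = 3.32e-05).

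Some vessel genes fell. Aplnr (chr2:85136225-85139923), the apelin receptor of capillary endothelium, was at 238, 237 and 268 CPM in room air and 62, 71.9 and 122 CPM in hyperoxia. Animal 27 was the highest exposed animal and still lay far below room air (log2 fold change -1.57 ± 0.23 (SE), adjusted p = 0.000101). Its ligand apelin (Apln) was at 85.3, 78 and 95.4 CPM in room air and 99.3, 109 and 121 CPM in hyperoxia and was not called (log2 fold change 0.34 ± 0.16 (SE), adjusted p = 0.16). Kit, the receptor of stem cell factor, was at 229.8, 221 and 235 CPM in room air and 66.2, 74.3 and 106 CPM in hyperoxia (log2 fold change -1.50 ± 0.18 (SE), adjusted p = 9.65e-06). Sox17, an arterial transcription factor, was at 162, 149 and 142 CPM in room air and 91, 94.9 and 87.4 CPM in hyperoxia (log2 fold change -0.73 ± 0.14 (SE), adjusted p = 0.000951). Angpt2, which loosens vessels, was at 27.3, 25.4 and 32.8 CPM in room air and 10.4, 9.46 and 18.3 CPM in hyperoxia, and its fall (-1.23, adjusted p = 0.00622) was lost without animal 25 (-1.10, adjusted p = 0.0561), without animal 26 (-1.05, adjusted p = 0.0578).

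In the angiogenesis list 0 of 20 tested genes rose, 3 fell and 17 were not called (median -0.12), beside 2.1% rising and 3.72% falling of all tested genes. Vegfa was not called (-0.01, adjusted p = 0.957), nor were its receptors Kdr (0.17, adjusted p = 0.265) and Flt1 (0.12, adjusted p = 0.525). Tie1 (-0.50, adjusted p = 0.000881) and Plvap (-0.37, adjusted p = 0.00631) had small adjusted p-values with changes under 1.5-fold. Among 13 tested endothelial markers 1 rose and 2 fell (median -0.35). Gpihbp1, which carries lipoprotein lipase across capillaries, was at 122, 109.7 and 130.2 CPM in room air and 61.1, 63.7 and 65.3 CPM in hyperoxia (log2 fold change -0.94 ± 0.14 (SE), adjusted p = 0.00014). Egfl7, a secreted factor of endothelium, was at 688, 609 and 684 CPM in room air and 354, 383 and 477 CPM in hyperoxia (log2 fold change -0.71 ± 0.15 (SE), adjusted p = 0.00213). Lyve1, a receptor of lymphatic endothelium and some macrophages, was at 193, 211 and 234 CPM in room air and 337, 410.2 and 314 CPM in hyperoxia and rose (log2 fold change 0.74 ± 0.17 (SE), adjusted p = 0.00391). The pan-endothelial genes Pecam1 (-0.23, adjusted p = 0.0281) and Cdh5 (-0.17, adjusted p = 0.212) were not called. The sum of the endothelial list was 4517, 4133 and 4609.6 CPM in room air and 3555, 3744 and 3728 CPM in hyperoxia, so that every exposed animal was below every room-air animal.

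Some alveolar type 1 markers rose, while no type 2 marker was called, beside 2.1% of all tested genes rising and 3.72% falling. Akap5, an anchoring protein of type 1 cells, was at 310.3, 323 and 314 CPM in room air and 554, 591 and 538 CPM in hyperoxia (log2 fold change 0.83 ± 0.11 (SE), adjusted p = 2.64e-05). Rtkn2 was at 155, 155 and 154 CPM in room air and 255, 254 and 235 CPM in hyperoxia (log2 fold change 0.68 ± 0.11 (SE), adjusted p = 0.000324). Col4a3, a chain of the alveolar basement membrane, was at 214, 207 and 227 CPM in room air and 340.2, 370.2 and 384 CPM in hyperoxia (log2 fold change 0.75 ± 0.17 (SE), adjusted p = 0.00329). All 3 genes had no overlap between groups and stayed DEGs with any 1 animal left out. Of 12 type 1 markers 3 rose, 0 fell and 9 were not called (median 0.42), and Hopx (0.40, adjusted p = 0.000967), Pdpn (0.42, adjusted p = 0.00168) and Cldn18 (0.45, adjusted p = 3.15e-05) had small adjusted p-values under the fold minimum. Caveolin 1 (Cav1), which endothelium shares, had a negative estimate (-0.53, adjusted p = 0.00167). The sum of the type 1 list was 6665, 6316 and 6490.2 CPM in room air and 8141, 8150.3 and 7669 CPM in hyperoxia. Of 12 type 2 markers none was called by edgeR or DESeq2 and 6 had an unadjusted p under 0.05 (median 0.19), and 4 rose without animal 27. Surfactant protein C (Sftpc) was at 17851, 15464 and 14965 CPM in room air and 17403, 17975 and 16952 CPM in hyperoxia (log2 fold change 0.12 ± 0.09 (SE), adjusted p = 0.467), with overlapping groups. Surfactant protein B (Sftpb) was likewise not called (0.15, adjusted p = 0.379).

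Among genes linked to epithelial injury 3 rose, 1 fell and 10 were not called of 14 tested (median 0.28). Over all tested genes 2.1% rose and 3.72% fell. Galectin 3 (Lgals3), made by macrophages and injured epithelium, was at 60.2, 63.2 and 64.2 CPM in room air and 127, 104 and 90.7 CPM in hyperoxia (log2 fold change 0.79 ± 0.14 (SE), adjusted p = 0.000711). The integrin Itgb6 rose as well (0.69, adjusted p = 0.000589), and its call was lost without animal 25 (0.54, adjusted p = 0.0104). Without animal 25 the list had 1 rising member. Tenascin C (Tnc), a matrix protein of growing septa, was at 959.9, 931 and 970 CPM in room air and 399.6, 398 and 514 CPM in hyperoxia and fell with no overlap (log2 fold change -1.13 ± 0.13 (SE), adjusted p = 9.65e-06). Of 12 airway markers 2 rose and 0 fell (median 0.47). The secretoglobin Scgb3a2 was at 792, 903 and 886 CPM in room air and 1420.1, 1291 and 2032 CPM in hyperoxia, with animal 27 highest (log2 fold change 0.88 ± 0.23 (SE), adjusted p = 0.0118). The ciliary dynein Dnah5 was at 15, 16.5 and 14.4 CPM in room air and 24.3, 21.4 and 32.7 CPM in hyperoxia (log2 fold change 0.76 ± 0.23 (SE), adjusted p = 0.0318). Scgb3a2 was lost without animal 9 (0.82, adjusted p = 0.0549), without animal 27 (0.67, adjusted p = 0.0713), and Dnah5 without animal 9 (0.74, adjusted p = 0.0976), without animal 10 (0.82, adjusted p = 0.0596), without animal 11 (0.72, adjusted p = 0.114), without animal 25 (0.81, adjusted p = 0.0752), without animal 27 (0.60, adjusted p = 0.126).

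Other stress and signalling lists gave few calls, beside 2.1% of all tested genes rising and 3.72% falling. Of 15 interferon-stimulated genes 2 rose and 0 fell (median 0.46), namely Ifit3 (1.06, adjusted p = 0.0112) and the deubiquitinase-like Usp18 (0.69, adjusted p = 0.00416). Without animal 25 neither was a DEG (Ifit3 0.81, adjusted p = 0.119, and Usp18 0.54, adjusted p = 0.058). Of 14 genes of the integrated stress response only asparagine synthetase (Asns) rose (median 0.19), at 12.4, 14.3 and 14 CPM in room air and 21.9, 20.8 and 19.4 CPM in hyperoxia (log2 fold change 0.62 ± 0.14 (SE), adjusted p = 0.00411), and it was lost without animal 9 (0.55, adjusted p = 0.0325), without animal 25 (0.58, adjusted p = 0.0313). Of 15 hypoxia-inducible factor targets the glucose transporter Slc2a1 rose (median 0.18), at 16.3, 14.3 and 15.3 CPM in room air and 28.2, 26.4 and 22.6 CPM in hyperoxia (log2 fold change 0.75 ± 0.17 (SE), adjusted p = 0.00388), while Vegfa, Ldha (0.15, adjusted p = 0.141) and Pgk1 (0.37, adjusted p = 0.00423) did not meet the criteria. Without animal 27 the number of rising hypoxia targets was 3. Of 15 clock genes only Hlf, a transcription factor of clock output, changed (median 0.13), from 23.1, 26 and 29.3 to 11.9, 11.5 and 13.5 CPM (log2 fold change -1.10 ± 0.19 (SE), adjusted p = 0.000334). Core clock genes such as Arntl (0.01, adjusted p = 0.995) and Per2 (0.13, adjusted p = 0.68) were not called. Of 12 glucocorticoid-induced genes the metallothioneins Mt1 and Mt2 rose and 0 fell (median -0.23). Mt1, which metals and oxidants also induce, was at 32.9, 33.7 and 34.3 CPM in room air and 58.7, 65.4 and 60.1 CPM in hyperoxia (log2 fold change 0.87 ± 0.16 (SE), adjusted p = 0.000731). Mt2 (1.01, adjusted p = 0.048) was not called with any 1 animal left out, with log2 fold changes of 0.87 to 1.15 and adjusted p-values of 0.0692 to 0.185. The classical glucocorticoid targets Fkbp5 (0.32, adjusted p = 0.292) and Tsc22d3 (-0.29, adjusted p = 0.0938) were not called.

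Immediate early genes, which cells switch on within minutes of a stimulus, were looked at after their values were seen. Egr1 was at 87.2, 149.9 and 157 CPM in room air and 14.6, 30.5 and 46.9 CPM in hyperoxia (log2 fold change -2.16 ± 0.54 (SE), adjusted p = 0.00897), and the nuclear receptor Nr4a1 at 98.9, 123 and 205 CPM in room air and 17.5, 20.2 and 46.4 CPM in hyperoxia (log2 fold change -2.44 ± 0.63 (SE), adjusted p = 0.0103). Both were lowest in animal 25 and differed widely among room-air animals, without overlap. Fos (-1.39, adjusted p = 0.0287), Fosb (-1.54, adjusted p = 0.0132) and Ier2 (-0.93, adjusted p = 0.00681) fell too, and Junb was not called (-0.57, adjusted p = 0.101). Each of these calls was lost with some single animal left out, for Fosb without animal 25 at a larger estimate than with all animals. That of Egr1 was lost without animal 25 (-1.79, adjusted p = 0.0771). That of Nr4a1 was lost without animal 11 (-2.07, adjusted p = 0.0547), without animal 25 (-2.17, adjusted p = 0.0785). It was also lost without animal 26 (-2.25, adjusted p = 0.0666). That of Fos was lost without animal 10 (-1.36, adjusted p = 0.0656), without animal 11 (-1.16, adjusted p = 0.132). It was also lost without animal 25 (-1.16, adjusted p = 0.173), without animal 26 (-1.37, adjusted p = 0.106). That of Fosb was lost without animal 25 (-1.62, adjusted p = 0.0574), without animal 26 (-1.21, adjusted p = 0.113). That of Ier2 was lost without animal 25 (-0.78, adjusted p = 0.0645). In the other genotypes the log2 fold changes of Egr1 were -1.09 in XYF, -0.10 in XXF and -1.50 in XXM.

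Several erythroid transcripts fell. The beta globin gene Hbb-bt was at 776, 589 and 991 CPM in room air and 489, 305 and 378 CPM in hyperoxia (log2 fold change -1.01 ± 0.21 (SE), adjusted p = 0.002), and Alas2, the X-linked enzyme that starts heme synthesis in red cells, was at 189.8, 163 and 224 CPM in room air and 134, 91.9 and 92.3 CPM in hyperoxia (log2 fold change -0.85 ± 0.20 (SE), adjusted p = 0.0058). The major beta globin gene Hbb-bs stood at 3383, 2757 and 3886 CPM in room air and 2208, 1522 and 1706 CPM in hyperoxia, and the alpha globin gene Hba-a2 at 783, 462 and 813 CPM in room air and 413, 315 and 440.5 CPM in hyperoxia. Hbb-bs (-0.88, adjusted p = 0.00672) was lost without animal 26 (-0.77, adjusted p = 0.054), and Hba-a2 (-0.82, adjusted p = 0.0235) without animal 9 (-0.72, adjusted p = 0.099), without animal 11 (-0.68, adjusted p = 0.128), without animal 25 (-0.87, adjusted p = 0.0671), without animal 26 (-0.69, adjusted p = 0.138). Of 7 tested erythroid genes 4 fell, 0 rose and 3 were not called (median -0.82), beside 3.72% and 2.1% of all tested genes. The count of falling members was 2 without animal 26. Because reads of near-identical globin copies may have been split, the values of single globins are uncertain. The sum of the list was 6752, 5322 and 7673 CPM in room air and 4394, 3101 and 3543 CPM in hyperoxia, and the lowest room-air animal, 10, was above the highest exposed animal.

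The most extreme falls moved with muscle and fat transcripts in the room-air animals. Myh8, the perinatal skeletal myosin, was at 1.03, 237 and 116 CPM in room air and 0.241, 0.0591 and 0.636 CPM in hyperoxia. Only animals 10 and 11 were high, and animal 9 was near the exposed animals. The call of Myh8 (adjusted p = 0.041) was lost without animal 10 (-7.93, adjusted p = 0.108), without animal 11 (-8.94, adjusted p = 0.0717), without animal 25 (-9.0, adjusted p = 0.17), without animal 26 (-8.40, adjusted p = 0.155), without animal 27 (-9.44, adjusted p = 0.0846). Carbonic anhydrase 3 (Car3), of muscle and fat, was at 1.19, 16.2 and 57.8 CPM in room air and 0.674, 0.473 and 0.318 CPM in hyperoxia (-5.53, adjusted p = 0.0343) and was lost without animal 11 (-3.94, adjusted p = 0.192), without animal 25 (-5.85, adjusted p = 0.134), without animal 26 (-5.43, adjusted p = 0.135), without animal 27 (-5.40, adjusted p = 0.0818). Myh3 and Acta1, which were named after their values were seen, showed the same pattern. Myh3, the embryonic skeletal myosin, was at 0.378, 55.2 and 18 CPM in room air and 0.433, 0.177 and 0.795 CPM in hyperoxia and was not called (-5.88, adjusted p = 0.0716). Acta1, the skeletal actin, was at 0.612, 184 and 106 CPM in room air and 1.78, 0.414 and 0.318 CPM in hyperoxia and was not called (-6.54, adjusted p = 0.0621). Without animals 10 and 11 together their estimates turned to 0.06 and 0.72, and that of Myh8 was -2.12, against -9.54 without animal 9. In the muscle list 1 of 13 tested genes fell (median -1.90), beside 3.72% of all tested genes. Of this list 6 fell without animal 9 and 0 with any 1 of the other XYM animals left out. The part of these transcripts in the falls was not tested.

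Genes of fat were high in animal 11. Fabp4, a fatty acid carrier of fat and capillaries, was at 6.17, 8.24 and 82.4 CPM in room air and 4.09, 3.9 and 3.81 CPM in hyperoxia (-3.03, adjusted p = 0.0267), and without animal 11 its log2 fold change was -0.84 (adjusted p = 0.625). Its call was also lost without animals 25 (adjusted p = 0.111), 26 (adjusted p = 0.107) and 27 (adjusted p = 0.0657). Cidec, a lipid droplet protein, was at 2.25, 1.68 and 7.52 CPM in room air and 0.289, 0.237 and 0.636 CPM in hyperoxia (-3.48, adjusted p = 0.00781) and was lost without animal 11 (-2.52, adjusted p = 0.0809), without animal 25 (-3.33, adjusted p = 0.0612), without animal 26 (-3.23, adjusted p = 0.0588). Adiponectin (Adipoq) was at 0.072, 0 and 8.58 CPM in room air and 0, 0.0591 and 0 CPM in hyperoxia (adjusted p = 0.0474), and no fold is given because the exposed animals hold 1 count. Its call was lost without animals 11 (adjusted p = 0.892), 25 (adjusted p = 0.204), 26 (adjusted p = 0.145) and 27 (adjusted p = 0.097). The brown fat gene Ucp1, named after its values were seen, was at 0.162, 0 and 40.1 CPM in room air and 0.144, 0.0591 and 0.159 CPM in hyperoxia and was not called (adjusted p = 0.0564). Of 5 tested adipocyte genes 1 fell, beside 3.72% of all tested genes, and 4 fell without animal 9 and 2 without animal 10. The fitted median of the list, -6.61, rests on few exposed counts and on animal 11. Further falls followed animals 10 and 11. The uroplakin relative Upk3bl was at 0.054, 8.41 and 4.93 CPM in room air and 0.0481, 0 and 0 CPM in hyperoxia (adjusted p = 0.0427), and no fold is given because the exposed animals hold 1 count. The imprinted gene Rtl1 was at 0.378, 5.14 and 3.42 CPM in room air and 0.337, 0.177 and 0 CPM in hyperoxia (-3.73, adjusted p = 0.0334). Leaving out any 1 of animals 10, 11, 25, 26 and 27 removed both from the DEGs, with adjusted p-values of 0.083 to 0.162 for Upk3bl and 0.0868 to 0.133 for Rtl1. Rtl1 is transcribed on both strands, and the strand setting of the counts is not given in the sources used here.

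Without room-air animals 10 and 11 together, which leaves animal 9 as the only room-air XYM animal, 110 genes rose and 248 fell, and 94 of the 372 rising and 231 of the 658 falling DEGs were called again. In that fit animal 9 is assumed to vary like the animals of the other groups. All 372 rising DEGs and 657 of the 658 falling DEGs kept their direction. This could hardly be otherwise for the 1018 DEGs without overlap between the groups.

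Several large falls showed no such pattern. Prokr2 (chr2:132337733-132385447), the receptor of prokineticins, was at 2.43, 3.54 and 3.68 CPM in room air and 0.0481, 0 and 0.477 CPM in hyperoxia (log2 fold change -4.90 ± 0.98 (SE), adjusted p = 0.00157). Its exposed values rest on few counts, and its log2 fold change ran from -4.17 without animal 26 to -6.57 without animal 27. Enpp1, a phosphodiesterase that makes pyrophosphate, was named after its values were seen and was at 33.8, 43 and 40.2 CPM in room air and 5.48, 6.51 and 8.42 CPM in hyperoxia (log2 fold change -2.56 ± 0.25 (SE), adjusted p = 2.41e-06). Chst8, a sulfotransferase, was at 7.72, 6.55 and 7.86 CPM in room air and 1.11, 0.887 and 0.795 CPM in hyperoxia (log2 fold change -2.94 ± 0.38 (SE), adjusted p = 2.32e-05). For each of these genes the groups were far apart. Otof, the vesicle protein otoferlin, was at 6.52, 5.05 and 7.33 CPM in room air and 0.674, 0.828 and 1.75 CPM in hyperoxia (log2 fold change -2.69 ± 0.49 (SE), adjusted p = 0.00061). Thsd7b, a thrombospondin-domain protein, was at 6.59, 8.86 and 9.53 CPM in room air and 1.06, 0.651 and 1.11 CPM in hyperoxia (log2 fold change -3.17 ± 0.74 (SE), adjusted p = 0.0052). In all 5 genes room-air animal 9 was close to animals 10 and 11, and every exposed animal was far lower. The lack of overlap was a condition for naming these genes, except for Enpp1. Among the most abundant falling genes, Nrep was at 1639, 1744 and 1773 CPM in room air and 989, 981 and 1416 CPM in hyperoxia and Fstl1 at 1100, 1240.5 and 1251 CPM in room air and 748, 721 and 880.3 CPM in hyperoxia. Both lay near the 1.5-fold minimum (Nrep -0.61, adjusted p = 0.00368, Fstl1 -0.61, adjusted p = 6.06e-05). Nrep was lost without animal 11 (-0.58, adjusted p = 0.0183), without animal 25 (-0.52, adjusted p = 0.0376), without animal 26 (-0.52, adjusted p = 0.0355), and Fstl1 without animal 10 (-0.58, adjusted p = 0.000658), without animal 11 (-0.58, adjusted p = 0.000755), without animal 25 (-0.58, adjusted p = 0.0011), without animal 26 (-0.56, adjusted p = 0.00116).

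On the X chromosome 566 genes were tested, of which 14 rose and 16 fell, and the share of DEGs (5.3%) was near that of all genes (5.83%). Besides Eda2r, the X-linked rises with small p-values were the amino acid transporter Slc6a14, at 30.5, 41.6 and 38.7 CPM in room air and 77.5, 73.2 and 61.7 CPM in hyperoxia (log2 fold change 0.95 ± 0.11 (SE), adjusted p = 9.65e-06), the fatty acid ligase Acsl4 (0.67, adjusted p = 0.00202) and Nexmif (0.79, adjusted p = 0.00217). The falls were led by Armcx4, at 229.6, 231 and 233 CPM in room air and 119, 122 and 136 CPM in hyperoxia (log2 fold change -0.89 ± 0.11 (SE), adjusted p = 2.01e-05), followed by Tro (-1.08, adjusted p = 0.000197) and the sushi-repeat protein Srpx (-0.97, adjusted p = 0.000603). The demethylase genes Kdm5c (0.10, adjusted p = 0.504) and Kdm6a (-0.03, adjusted p = 0.932) were not called. Of 7 tested genes that the annotation places on the Y chromosome, Sry included, none was called by edgeR and none had an unadjusted p under 0.05, with a smallest adjusted p of 0.26. The 6 tested genes of the sex chromosome check (Sry, 4 Y-linked genes and Xist) had 0 calls by edgeR and 1 with an unadjusted p under 0.05 (median 0.25), which was Xist (0.76, adjusted p = 0.175). Sry, read from the transgene, was at 1.06, 0.974 and 1.25 CPM in room air and 0.914, 1.6 and 1.43 CPM in hyperoxia (adjusted p = 0.921), and its 9 to 59 counts per animal leave its change poorly determined (SE 0.91). Ddx3y was at 49.5, 60 and 56.9 CPM in room air and 62.4, 79.2 and 58.6 CPM in hyperoxia (adjusted p = 0.26).

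The same contrast was then taken in the other genotypes, with their own exposed and room-air animals. DEGs numbered 540 in XYF (3.05% of tested genes, 1.29% up and 1.77% down), 274 in XXF (1.55%, 0.798% up and 0.752% down) and 1940 in XXM mice (11%, 4.53% up and 6.44% down). Of the 1030 XYM DEGs 1023 had the same direction in XYF, 984 in XXF and 990 in XXM mice, and 949 had it in all 3. The share of agreeing directions over all tested genes was not computed, so counts of direction have no background here. DEGs called alike numbered 430 with XYF (41.7% of XYM and 79.6% of XYF DEGs), 188 with XXF (18.3% and 68.6%) and 545 with XXM (52.9% and 28.1%). The XXM count rests on animals 22 and 23, without which it was 798 DEGs with 425 called alike, and without animal 5 it was 1559 with 522. In the former fit animal 21 is the only exposed XXM animal and is assumed to vary like the other groups. In all 4 genotypes 121 genes were called alike. A further 354 were DEGs in XYM alone, and 293 of these had the same direction in all other genotypes. As a description of genes chosen on XYM values, the median log2 fold change of the rising DEGs was 0.77 in XYM, 0.62 in XYF, 0.51 in XXF and 0.65 in XXM, and that of the falling DEGs -0.89, -0.63, -0.46 and -0.66.

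The differences themselves were tested. The XYM response minus that of XYF gave 0 DEGs by edgeR, with 247 genes at an unadjusted p under 0.05 (1.4%) and 8 DEGs by DESeq2. Against XXF there were 0 DEGs, 1163 genes (6.58%) at the unadjusted p and 7 by DESeq2. Against XXM there were 0 DEGs, 1944 genes (11%) and 10 by DESeq2. Against the mean of the other 3 genotypes there were 0 DEGs, 846 genes (4.79%) and 7 by DESeq2. Both contrasts include exposed XXM animals 22 and 23, which held only 17764 and 15985 genes with a count. The part of these libraries in the unadjusted numbers was not tested. Without animal 27, 13 genes differed from XXF and 3 from the mean of the others. The smallest p-values against XYF belonged to the squamous keratins Krt13, Krt4 and Krt5. Krt13 was at 2.12, 181 and 105 CPM in room air and 0.433, 0.177 and 0 CPM in hyperoxia, again high in room-air animals 10 and 11. Against XXF they belonged to Plbd1, Wdfy4 and Upk1b. Plbd1, a phospholipase-like protein of myeloid cells, fell in XYM (-0.73, adjusted p = 0.00766), lost without animal 25 (-0.66, adjusted p = 0.0599), without animal 26 (-0.66, adjusted p = 0.0551), with log2 fold changes of -0.09 in XYF, 0.61 in XXF and 0.18 in XXM. Upk1b fell in XYM (-0.61, adjusted p = 0.00971), lost without animal 10 (-0.54, adjusted p = 0.0462), without animal 25 (-0.57, adjusted p = 0.0608), without animal 26 (-0.51, adjusted p = 0.0759), and stood at 0.02 in XYF, 0.54 in XXF and -0.49 in XXM. Wdfy4, a gene of dendritic cell antigen presentation, was not called in XYM (-0.21, adjusted p = 0.314), against 0.16 in XYF, 0.74 in XXF and 0.53 in XXM. Against XXM they belonged to Ccdc63, Zfp780b and Gm37694. None was a DEG in XYM, with log2 fold changes of 0.86 (adjusted p = 0.341), 0.20 (adjusted p = 0.408) and 0.27 (adjusted p = 0.813). Their mean levels in room-air XXM lungs were 0.536, 13.4 and 1.07 CPM. In exposed XXM lungs, which include animals 22 and 23, they were 0, 7.48 and 0.046 CPM. Spata9, which fell in XYM (-1.61, adjusted p = 0.0397), was the only XYM DEG with a DEG of opposite direction elsewhere, in XXM (1.46). Its XYM call was lost with any 1 of animals 10, 11, 25, 26 and 27 left out, at adjusted p-values of 0.097 to 0.127.

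**Figure D5:**
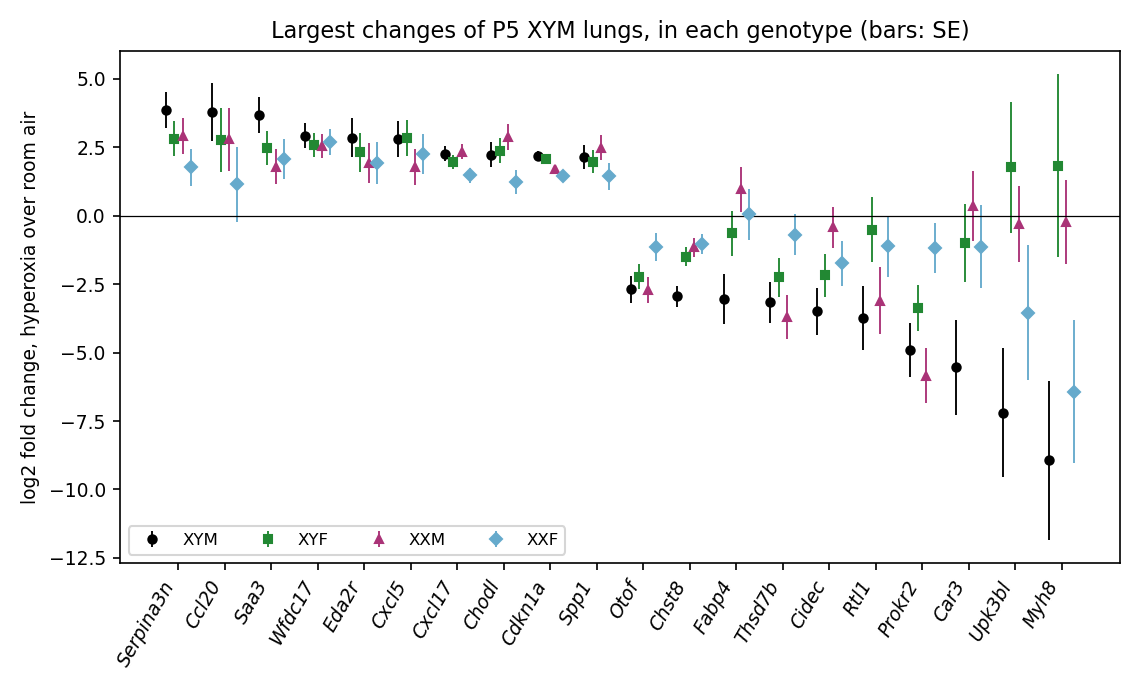
Log2 fold change of hyperoxia over room air at P5 (vertical axis) for the 10 largest rises and 10 largest falls named in XYM lungs (horizontal axis), with 1 symbol for each genotype and bars of 1 SE. The genes were chosen on XYM values; Serpina3n, Saa3 and Cdkn1a stand above 0 in all 4 genotypes, Myh8 and Upk3bl differ in sign between them, and the XYM point of Upk3bl rests on 1 exposed count.

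Side by side, the leading genes of the XYM response had these log2 fold changes elsewhere. Cdkn1a stood at 2.07 in XYF, 1.46 in XXF and 1.69 in XXM, and Ccl6 at 1.74 in XYF, 1.70 in XXF and 1.85 in XXM. Pdgfra stood at -1.50 in XYF, -1.02 in XXF and -1.83 in XXM, Aplnr at -1.27 in XYF, -0.81 in XXF and -1.50 in XXM and Kit at -1.41 in XYF, -0.92 in XXF and -1.72 in XXM. Ube2c stood at -0.73 in XYF, -0.81 in XXF and -0.58 in XXM. Of the 23 mitotic genes 11 fell in XYF, 11 in XXF and 6 in XXM mice (where 1.77%, 0.752% and 6.44% of all tested genes fell), against 23 in XYM, and the list medians were -0.65, -0.68, -0.45 and -0.98 in this order. Whether the mitotic fall was larger in XYM was tested for each gene within the difference contrasts above, which called none. Muscle and keratin genes did not keep a direction, with Myh8 at 1.83 in XYF, -6.43 in XXF and -0.23 in XXM and Krt13 at 8.43 in XYF, -5.60 in XXF and 1.18 in XXM. The leukocyte receptor Flt3 was not called in XYM (-0.71, adjusted p = 0.356) and stood at -0.06 in XYF, 1.99 in XXF and 1.48 in XXM.

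The direction of the XYM DEGs was set beside normal maturation, measured as P21 over P5 in room-air lungs of the other 3 genotypes. The XYM contrast compares none of these animals, but those at P5 were part of its fit. In the age comparison 19.1% of 17534 tested genes were higher and 13.4% lower at P21. Of 368 rising XYM DEGs tested 195 (53%) were higher at P21 and 23 (6.25%) lower. Of 656 falling XYM DEGs 398 (60.7%) were lower at P21 and 80 (12.2%) higher. Thus Serpina3n (6.30), Spp1 (3.01) and Cdkn1a (0.99) were higher in the older room-air lungs, as log2 fold changes, and Prokr2 (-6.37), Thsd7b (-3.94) and Otof (-3.49) lower. Chodl, which rose in hyperoxia, was lower at P21 (-3.02).

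After recovery in room air to P21, other XYM animals (3 exposed as newborns and 3 controls) had 0 DEGs of 17937 tested genes by edgeR, with 1469 genes (8.19%) at an unadjusted p under 0.05, a smallest adjusted p of 0.0785 and 7 DEGs by DESeq2. Of the rising P5 DEGs 142 had the same and 225 the opposite direction at P21, and of the falling ones 329 and 309. The same shares over all tested genes were not computed. Cdkn1a was at 56.1, 85.7 and 63.2 CPM in room air and 111, 101 and 169 CPM after hyperoxia (log2 fold change 0.90, adjusted p = 0.405). Pdgfra was at 317, 345 and 337 CPM in room air and 264, 325 and 377 CPM after hyperoxia (log2 fold change -0.05, adjusted p = 0.965). Ube2c was at 8.58, 9.81 and 6.66 CPM in room air and 5.12, 7.76 and 4.48 CPM after hyperoxia (log2 fold change -0.52, adjusted p = 0.692). These groups overlapped for Pdgfra and Ube2c. Whether the response differed between P5 and P21 was not tested.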

How the data were processed

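RNA sequencing counts of 48 FCG lungs were used, of which 24 at P5 entered the fit. The authors made the deposited counts by aligning reads with HISAT2 to mm10 and counting them per gene with featureCounts, per the submitters' processing notes. The sources used here name no tool version, annotation release or strand setting. GENCODE M21 gave each gene its symbol and position (GRCm38). It held 52403 of 52550 gene IDs, and the remaining 147 IDs took 0.00824% of counts. Columns were matched to samples by their names. For room-air XXF animal 34 the age in the column name differs from the P21 of the sample title. It was matched by genotype, treatment and animal number and was used as P21.

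Genes were filtered by expression in edgeR, counts were scaled by TMM, and the quasi-likelihood test was fitted over the 8 P5 groups, with contrasts for XYM and for its difference from each other genotype. A DEG had a Benjamini-Hochberg adjusted p under 0.05 over all tested genes and a change of at least 1.5-fold. P-values rest on the spread between animals within groups, pooled over the 8 P5 groups and not taken from the XYM animals alone. P21 animals, and age in the other genotypes, were fitted likewise. The fit was also run on simulated counts with the same spread for every gene and changes only in well-expressed genes. The simulated counts held no outlying animals, so they do not test the fit for such animals. Members, lists and tests were chosen with earlier results of these data known. Named genes were the 10 largest rises and falls among DEGs with a mean of at least 1 CPM and no overlap, the 5 most abundant DEGs each way, up to 4 called members with the smallest p of each list (or the 2 most abundant members if none was called), the 3 smallest adjusted p-values of each genotype difference, sex chromosome check genes, the 3 smallest p-values of X- or Y-linked genes each way, a gene called in the opposite direction in another genotype, and 5 genes that the study names. Other list members were given to describe their list. Some list members are counted but not reported here by name. Genes said to be named after their values were seen fall outside this rule. Promoter sequences came from RefSeq (GRCm38.p6), and matched all of the genes shown.

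Depth in the 6 XYM libraries ran from 6287673 to 56798952 counts, and the deeper libraries give the more precise values, so animal 27 is the least precise. Alternatives were DESeq2, RLE factors, no filter beyond 1 count, thinning to 6008291 counts, other sets of animals, other thresholds and leaving out each animal. Leaving out room-air XYM animals 10 and 11 together, or room-air XXM animal 5, was chosen after seeing the data. R 4.3.3, edgeR 4.0.16, DESeq2 1.42.0, limma 3.58.1, Python 3.11.15, numpy 2.4.6, pandas 2.3.3 and matplotlib 3.10.9 were used.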

Additional observations from a re-analysis of the deposited data

How the results depend on the processing

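The number of XYM DEGs at P5 depended on the settings. Rising and falling DEGs numbered 372 and 658 with all 24 animals, 687 and 1122 without exposed XXM animals 22 and 23, 698 and 1151 from the 6 XYM animals alone, 655 and 1061 from the 12 XYM and XYF animals, and 110 and 248 without room-air XYM animals 10 and 11 together. They numbered 1083 and 1364 with no fold minimum, and 571 and 987 when both a 1.5-fold change and an unadjusted p under 0.05 were asked for. DESeq2 gave 434 and 781. Leaving out any 1 XYM animal gave 220 to 449 rising and 386 to 728 falling DEGs. The cause of these shifts was not tested. Of the 1030 DEGs, 1002 were shared with DESeq2, 1018 with RLE factors, 953 with no filter, 813 after thinning and 587 to 932 with any 1 XYM animal left out. The difference from XYF called 8 genes by DESeq2, 31 with no filter and 136 when both a 1.5-fold change and an unadjusted p under 0.05 were asked for. For XXF these numbers were 7, 65 and 422, for XXM 10, 44 and 1160, and for the mean of the other genotypes 7, 16 and 300. With any 1 XYM animal left out, 0 to 13 genes differed from XXF and 0 to 3 from the mean of the others, the highest without animal 27. At P21 the DEGs were 7, 2 and 712 under the same settings and 0 to 1 with any 1 animal left out, the latter without animal 59. Some estimates that were not called turned sign. Without animals 10 and 11 together they were -0.028 for Sftpc, -0.022 for Sftpb and 0.030 for Kdm6a, and the large negative estimates of Myh3 and Acta1, which rest on these animals, became 0.063 and 0.72. Kdm6a was 0.026 after thinning. With any 1 animal left out Kdm5d ran from -0.045 to 0.082, Gm37694 from -0.026 to 0.54 and Kdm6a from -0.063 to 0.032. No paired analysis was possible because each animal has a number of its own and no number is shared between groups. The lowest depth, 6287673 counts in animal 27, limits what can be said of genes near 1 CPM, and 3 animals a group limit every test.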
